A study of Mus musculus with 6 samples.

Results

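The genes described here are 37 genes of DNA replication and S phase, chosen from a list of symbols and found in the deposited count table by the Ensembl ID that each symbol has in GRCm38. All 37 matched 1 row each of the 49315 rows. They were sorted into 6 steps, which are origin licensing (8 genes), activation of the replicative helicase (6), polymerases with their clamp and clamp loader (11), nucleotide supply (4), E2F factors with E-type cyclins (4), and chromatin and histone handling (4). The samples were 3 libraries of MNRR1 KO cells and 3 libraries of Wild Type (WT) cells of TKO, a mouse ovarian cancer line whose name stands for triple knockout. Both groups therefore carry the alterations of that line, which the labels do not name, and the KO libraries carry the loss of MNRR1 in addition. The descriptions give all KO libraries the same clone name, so what holds for them holds for 1 clone. The labels do not say that replicates were separate cultures, so p-values measure the spread between these libraries, which may be technical.

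Before a cell divides, it copies its genome from many origins. In G1 the proteins Cdc6 and Cdt1, with the origin recognition complex, load the ring-shaped Mcm2-7 helicase onto DNA, a step called licensing. At the start of S phase Cdc45 and the GINS complex turn the ring into the active helicase, polymerase alpha with primase lays down primers, the RFC complex loads the sliding clamp Pcna, and polymerases delta and epsilon extend the strands. Most of these genes are transcribed at the transition from G1 to S phase by E2F factors, which pocket proteins of the retinoblastoma family hold back until cyclin-dependent kinases release them.

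Libraries are numbered by their replicate numbers. Total counts ran from 33226463 to 40983999 per library, and single counts of the 37 genes ran from 442 to 25502, so none was near a count of 0. Chchd2, the gene of MNRR1, was at 16.6, 17.6 and 17.0 CPM in KO libraries and 367, 349 and 340.2 CPM in WT libraries, as the genotype labels state. CPM is the count scaled to library size, with factors from the TMM method. Of 9 epithelial and ovarian markers 8 passed the filter on low counts, among them Wt1 and Krt18, whereas Pax8 did not. Epcam was at 2.16 to 2.94 CPM in KO and 2.21 to 2.39 CPM in WT libraries, and the summed level of the 9 markers was 2249 to 2379 CPM in KO and 2773 to 2928 CPM in WT libraries. Single markers, named after their values were seen, moved in both directions at an edgeR adjusted p under 0.05. Krt7, Krt8, Krt18 and Msln fell, with log2 changes of -1.88, -0.76, -0.55 and -1.38, while Krt19 and Muc16 rose, by 0.44 and 0.46. Of 6 immune markers 5 stayed below 1 CPM in all libraries, and Cd3e was at 0 in all. The 7 fibroblast markers summed to 940.3 to 1009 CPM in KO and 882 to 926 CPM in WT libraries, and the 5 endothelial markers to 2.70 to 3.63 CPM in KO and 5.71 to 6.19 CPM in WT libraries. These sums also held opposite moves. Col1a1 fell, at a mean of 10.3 ± 1.85 CPM over KO and 134 ± 5.48 CPM over WT replicates (SD, n = 3 each), whereas Col3a1 and Pdgfrb rose by log2 changes of 0.84 and 2.14, and Kdr fell with a log2 change of -2.23 whereas Tek rose by 2.54. The part of these marker levels in the results was not tested.

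More of the replication genes were lower than higher in the KO clone. Of the 37 genes, 18 fell and 2 rose at an adjusted p under 0.05 in edgeR's quasi-likelihood test with Benjamini-Hochberg (BH) adjustment over all 16033 genes tested, and 17 were not called. Over all genes tested, 27.8% were called lower and 27.8% were called higher, against 48.6% and 5.41% of the replication genes. The 37 genes were chosen with earlier results of these data known, and this difference was not tested. A filter of at least 1 CPM in at least 3 libraries gave 31.6% of genes lower and 31.9% higher. With that filter 18 of the 37 genes were lower and 2 higher. The median fitted log2 change (KO over WT) was -0.18 for the 37 genes and 0.01 for all tested genes, and 32 of the 37 were fitted below 0. Single changes ran from -0.57 for Rrm1 and E2f1 to 0.68 for E2f2. The genes called higher were Gins4 and E2f2, and DESeq2 and limma voom also called only these 2 higher. In bulk RNA a smaller share of cells in S phase and less RNA per cell in S phase cannot be told apart.

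Every KO library lay below every WT library for 23 of the 37 genes, where 31.9% of all tested genes did so. Every KO library lay above every WT library for 2 genes, Gins4 and E2f2, where 32.1% of all tested genes did so. The groups overlapped for the other 12. Summed over the 37 genes, the level was 5141, 5505 and 5029 CPM in KO replicates 1 to 3, against 6206, 5976 and 6101 CPM in WT replicates 1 to 3, a KO mean of 85.7% of the WT mean. KO replicate 2 was the nearest to WT in that sum. It was the highest of the KO libraries for 28 of the 37 genes (75.7%), for 39.5% of all tested genes and for 71.2% of all genes that fell. Without KO replicate 2, 25 of the 37 genes were called lower and 2 higher, where 30.7% and 29.9% of all tested genes were called. Leaving out any other single library gave fewer falls than the 18 with all libraries, at 13 to 17 lower and 1 to 2 higher. Of all tested genes 23.1% to 25.7% were then lower and 22.9% to 25.1% higher.

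**Figure D1:**
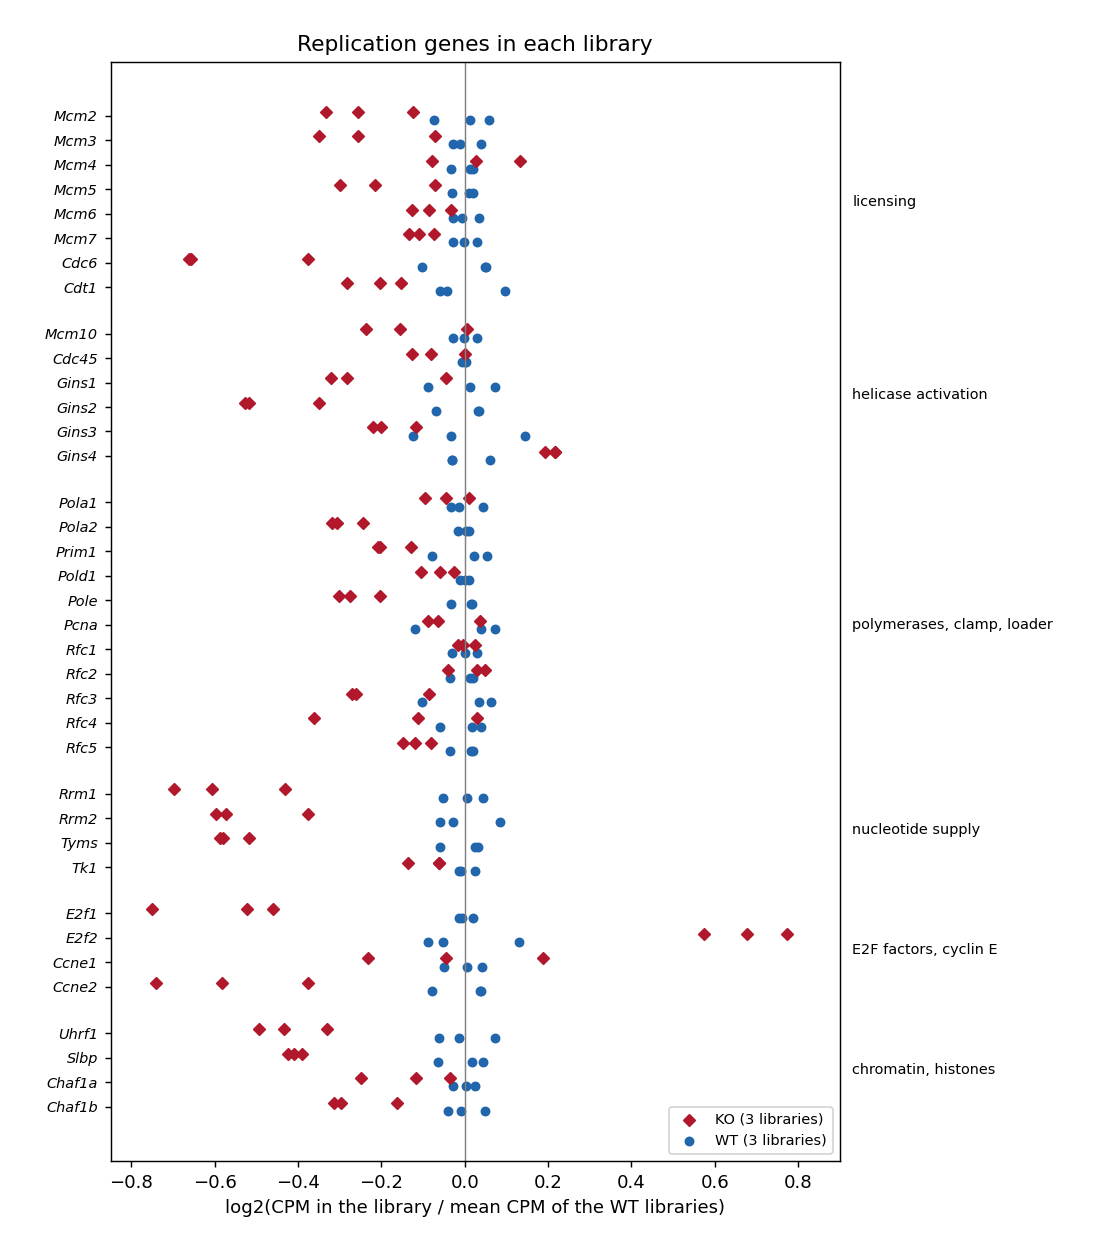
Each row is a replication gene, sorted by step, and the x axis is the log2 ratio of its CPM in a library to the mean CPM of the WT libraries. Red diamonds are the 3 KO libraries and blue circles the 3 WT libraries; E2f2 and Gins4 are the rows where all KO libraries lie to the right of all WT libraries.

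**Figure D2:**
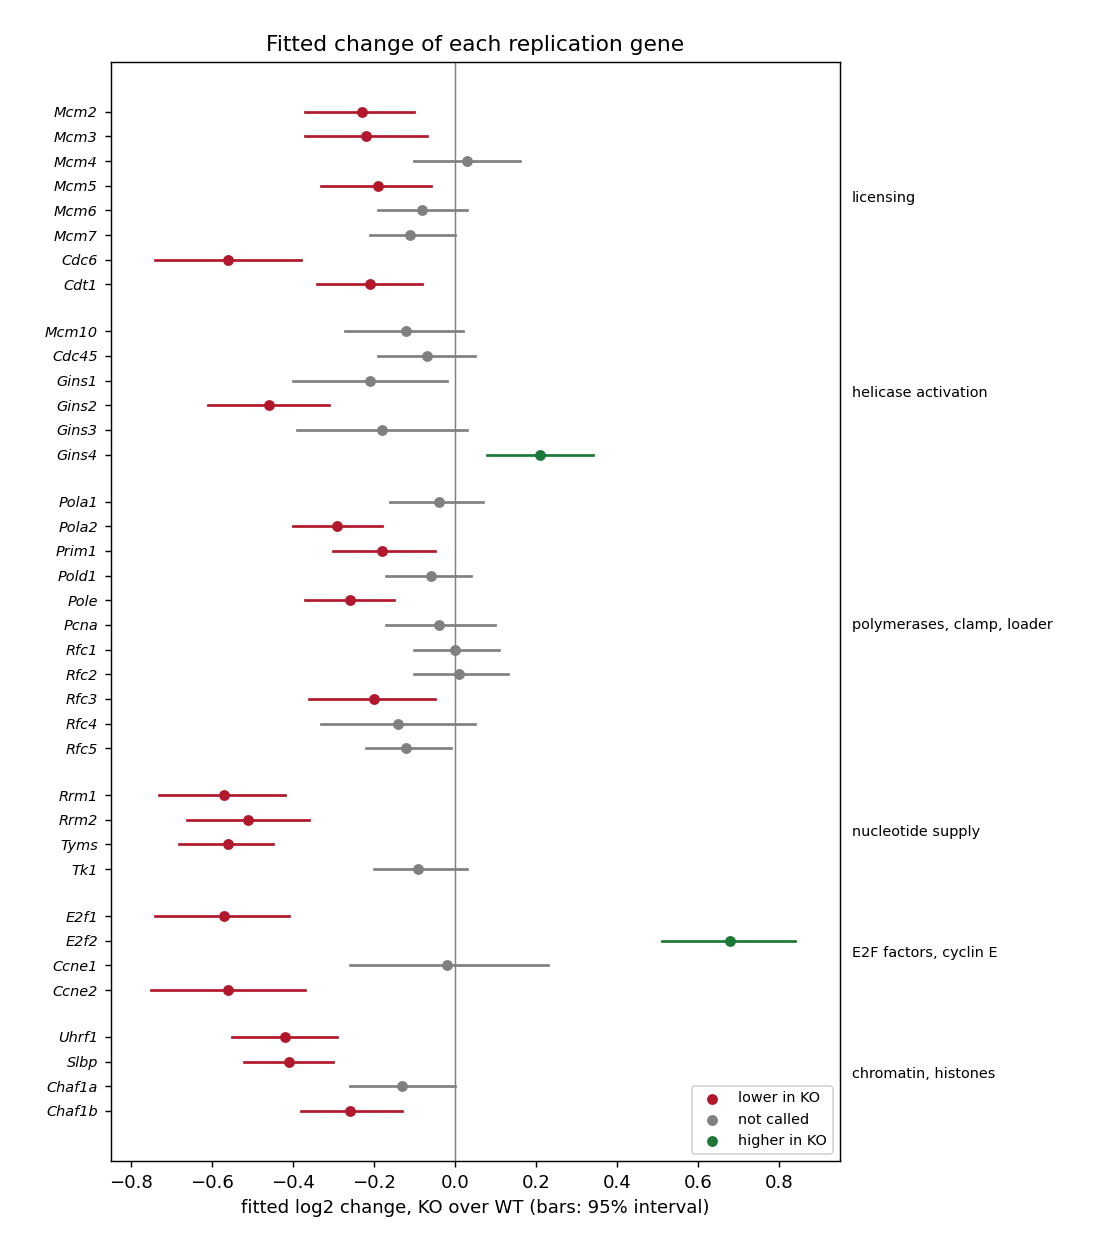
Fitted log2 change of each replication gene (KO over WT) with its 95% interval from edgeR's quasi-likelihood fit, sorted by step. Red marks the 18 genes called lower, green the 2 called higher and grey the 17 not called at an adjusted p under 0.05.

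Of the 8 licensing genes, 5 fell (62.5%), 0 rose and 3 were not called, with a median log2 change of -0.20. Over all tested genes 27.8% fell and 27.8% rose. Cdc6, the ATPase that helps the origin recognition complex load the helicase (ENSMUSG00000017499, chromosome 11, positions 98907801 to 98923940 on the plus strand), had 57.3, 69.9 and 57.5 CPM in KO replicates 1 to 3, against 93.7, 93.9 and 84.4 CPM in WT replicates 1 to 3. The groups did not overlap, and its fitted log2 change was -0.56 (SE 0.08, edgeR adjusted p = 0.000198). Cdt1, the partner that brings the Mcm2-7 ring to the origin, had 114, 124 and 120.1 CPM in the KO replicates and 133, 134 and 148 CPM in the WT replicates. All KO libraries were below all WT libraries for Cdt1 as well, at a log2 change of -0.21 (SE 0.06, edgeR adjusted p = 0.0105).

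The ring subunits did not move by the same amount. Mcm2 had 278, 304 and 263 CPM in the KO replicates and 345, 315 and 334 CPM in the WT replicates. Its log2 change was -0.23 (SE 0.06, edgeR adjusted p = 0.0082). Mcm3 had 228, 259 and 213 CPM in the KO replicates and 279, 270.2 and 267 CPM in the WT replicates, and Mcm5 had 309.8, 342 and 292 CPM in the KO replicates and 362, 352 and 365 CPM in the WT replicates. Both fell, with log2 changes of -0.22 (SE 0.07, edgeR adjusted p = 0.0171) and -0.19 (SE 0.06, edgeR adjusted p = 0.0206). Mcm6 and Mcm7, at -0.08 (95% interval -0.19 to 0.03, edgeR adjusted p = 0.188) and -0.11 (95% interval -0.21 to 0.00, edgeR adjusted p = 0.0816), lay lower in every KO library than in every WT library and missed the threshold. Mcm4, by contrast, had 327, 352 and 304 CPM in the KO replicates and 325, 313 and 323 CPM in the WT replicates. The groups overlapped, at a log2 change of 0.03 (95% interval -0.10 to 0.16, edgeR adjusted p = 0.695). Within a library, where the scaling cancels, Mcm4 made up 22.6% ± 0.432 in KO and 20.3% ± 0.147 in WT libraries of the summed Mcm2-7 level per exon length (SD, n = 3 each). The share of Mcm3 was 15.4% ± 0.632 in KO and 16.5% ± 0.304 in WT libraries and that of Mcm5 19.5% ± 0.442 in KO and 20.5% ± 0.224 in WT libraries. For Mcm2, Mcm3, Mcm4 and Mcm5 the shares of the groups did not overlap, with Mcm4 the larger and Mcm2, Mcm3 and Mcm5 the smaller in KO libraries. Mcm6 and Mcm7 shares overlapped between the groups.

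Some calls of the smaller licensing changes were lost with 1 library fewer, while the fitted changes kept their direction. With each library left out in turn, the log2 change was -0.30 to -0.16 for Mcm3, -0.26 to -0.14 for Mcm5 and -0.24 to -0.16 for Cdt1. The call of Mcm3 was lost when KO library 1 (edgeR adjusted p = 0.0763), WT library 1 (0.0724) or WT library 2 (0.0518) was left out and under library-total scaling (0.156), with p from 9.54e-06 to 0.156 over all settings. For Mcm5 the call was lost when KO library 1 (edgeR adjusted p = 0.0851), KO library 3 (0.0568), WT library 1 (0.0696) or WT library 3 (0.0683) was left out and under upper-quartile scaling (0.0701) and under library-total scaling (0.256), with p from 4.78e-05 to 0.256 over all settings, and for Cdt1 when KO library 1 (edgeR adjusted p = 0.0632) or WT library 3 (0.053) was left out and under library-total scaling (0.203), with p from 0.000824 to 0.203 over all settings. Mcm2 lost its call only under library-total scaling (adjusted p = 0.0873), with p from 2.65e-05 to 0.0873 over all settings. Without KO replicate 2, Mcm6 and Mcm7 were called lower (edgeR adjusted p = 0.0309 and 0.0364, in ranges of 0.0309 to 0.629 and 0.0364 to 0.781), while the log2 change of Mcm4 turned to -0.03, and Mcm4 was called higher under library-total scaling (adjusted p = 0.0249).

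RefSeq promoter windows, which run from 250 bases before to 50 bases after an annotated start, were found for 30 of the 37 genes. They were searched on both strands for the E2F-type words TTTCCCGC, TTTGGCGC, TTTCGCGC and TTTGCCGC. At least 1 of these words was present for 12 of the 30 genes (40.0%), where 2.60% of the 27025 genes with a window had one. By step, the word was held by 6 of 7 licensing genes with a window, 1 of 3 helicase activation genes, 3 of 9 polymerase genes, 0 of 4 nucleotide supply genes, 1 of 3 E2F and cyclin genes and 1 of 4 chromatin genes. Among genes that fell it was held by 6 of 15 (40.0%), and among genes not called by 5 of 14 (35.7%). The shorter CCAAT word was present for 19 of 30 genes (63.3%) against 41.1% of all genes with a window, and the CHR word TTTGAA for 4 of 30 (13.3%) against 20.2%. A match is a description of letters, not a bound site, and starts can differ between annotations, so a window need not lie at the start used in these cells.

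The windows of 3 licensing genes are printed because that step held the word most often, and those of E2f2 and Rrm1 because they are the gene with the greatest rise and a gene at the lowest log2 change among the 37. Each is from RefSeq on GRCm38.p6, 5′ to 3′ on the gene's strand, and capitals mark the E2F-type words on either strand. Mcm5 (chr8:75109259-75109558 on the plus strand) and Mcm6 (chr1:128359656-128359955 on the minus strand) each hold a pair of words that overlap and so read as 1 run of 12 capitals, TTTCGCGCCAAA in Mcm5 and TTTGGCGCGAAA in Mcm6. Mcm6 holds a further word nearer to its start. Cdc6 (chr11:98907901-98908200 on the plus strand) holds 1 word on the opposite strand, E2f2 (chr4:136172024-136172323 on the plus strand) holds 1 after its start in the printed window, which is 1 of 2, and Rrm1 (chr7:102441445-102441744 on the plus strand) holds none of these letters in this window.
Mcm5: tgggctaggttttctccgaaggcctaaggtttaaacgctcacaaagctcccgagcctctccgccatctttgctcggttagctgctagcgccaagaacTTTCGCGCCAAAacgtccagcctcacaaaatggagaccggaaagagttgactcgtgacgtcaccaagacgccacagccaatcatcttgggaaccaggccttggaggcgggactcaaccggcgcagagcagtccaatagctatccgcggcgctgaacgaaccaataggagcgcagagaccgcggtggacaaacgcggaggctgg
Mcm6: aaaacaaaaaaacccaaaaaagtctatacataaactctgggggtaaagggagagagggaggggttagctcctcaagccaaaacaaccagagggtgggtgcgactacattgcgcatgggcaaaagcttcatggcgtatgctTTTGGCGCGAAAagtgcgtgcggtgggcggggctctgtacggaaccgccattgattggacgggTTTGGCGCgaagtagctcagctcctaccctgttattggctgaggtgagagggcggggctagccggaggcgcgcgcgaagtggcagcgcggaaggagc
Cdc6: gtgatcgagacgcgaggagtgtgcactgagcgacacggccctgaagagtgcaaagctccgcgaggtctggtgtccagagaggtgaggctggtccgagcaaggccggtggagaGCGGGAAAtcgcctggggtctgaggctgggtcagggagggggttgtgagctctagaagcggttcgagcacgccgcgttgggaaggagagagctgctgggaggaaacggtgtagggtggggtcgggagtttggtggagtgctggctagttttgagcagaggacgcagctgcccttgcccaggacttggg
E2f2: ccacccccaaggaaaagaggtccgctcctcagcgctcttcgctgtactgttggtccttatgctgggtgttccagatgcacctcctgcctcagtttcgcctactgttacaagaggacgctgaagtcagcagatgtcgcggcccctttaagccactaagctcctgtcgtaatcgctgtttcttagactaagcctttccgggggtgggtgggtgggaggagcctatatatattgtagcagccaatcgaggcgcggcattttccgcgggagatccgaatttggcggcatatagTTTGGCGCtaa
Rrm1: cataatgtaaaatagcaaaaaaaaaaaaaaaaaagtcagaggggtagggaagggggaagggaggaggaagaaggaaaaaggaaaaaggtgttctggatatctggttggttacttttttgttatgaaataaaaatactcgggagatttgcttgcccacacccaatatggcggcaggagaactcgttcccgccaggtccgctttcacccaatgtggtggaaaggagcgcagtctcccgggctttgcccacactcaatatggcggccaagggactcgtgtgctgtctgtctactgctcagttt

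Genes that turn the loaded ring into the active helicase went in different directions. Of 6 genes, 1 fell (16.7%), 1 rose (16.7%) and 4 were not called, against 27.8% of all tested genes in each direction. Gins2, a GINS subunit, had 35.2, 39.5 and 34.9 CPM in KO replicates 1 to 3, against 51.5, 48.0 and 51.5 CPM in WT replicates 1 to 3. The groups did not overlap, and the log2 change was -0.46 (SE 0.07, edgeR adjusted p = 0.00019). Gins4, a subunit of the same complex, had 41.6, 41.6 and 40.9 CPM in KO replicates 1 to 3, against 35.0, 35.0 and 37.3 CPM in WT replicates 1 to 3. All KO libraries lay above all WT libraries, at a log2 change of 0.21 (SE 0.06, edgeR adjusted p = 0.0109). The level of Gins4 per exon length relative to that of Gins2, a ratio chosen after the values were seen, was 3.59, 3.19 and 3.56 in KO replicates 1 to 3, against 2.06, 2.22 and 2.20 in WT replicates 1 to 3, which does not depend on the scaling. The exact permutation p of that ratio (two-sided) was 0.1, the smallest that 3 against 3 libraries allow. Reads of Gins2 carry a limit, since 67.3% of its exon bases overlap Gse1 on the opposite strand, a gene with 14681 counts in KO and 10656 counts in WT libraries in sum. The sources used here do not give the strand setting of the counting, so reads of these genes could not be told apart.

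The other GINS subunits were not called. Gins1 had 23.5, 28.5 and 24.2 CPM in the KO replicates and 30.9, 27.7 and 29.7 CPM in the WT replicates, and KO replicate 2 lay above WT replicate 2 while the other KO libraries lay below all WT libraries. Its log2 change was -0.21 (95% interval -0.40 to -0.02, edgeR adjusted p = 0.0569), and it was called when KO library 2 (edgeR adjusted p = 0.00127) was left out and with no filter (0.0301). Gins3 had 12.8, 13.0 and 13.8 CPM in the KO replicates and 14.6, 16.5 and 13.7 CPM in the WT replicates. Its groups overlapped, at a log2 change of -0.18 (95% interval -0.39 to 0.03, edgeR adjusted p = 0.136). Cdc45, the other partner of the active helicase, had 73.0, 77.2 and 70.7 CPM in the KO replicates and 77.4, 76.9 and 77.3 CPM in the WT replicates. Only KO replicate 2 reached the WT range, and the log2 change was -0.07 (95% interval -0.19 to 0.05, edgeR adjusted p = 0.307). Mcm10, which helps the helicase to open the origin, was at a mean of 101 ± 8.76 CPM over KO and 110.4 ± 2.25 CPM over WT replicates (SD, n = 3 each), a log2 change of -0.12 (95% interval -0.27 to 0.02, edgeR adjusted p = 0.125). Without KO replicate 2, Mcm10 was called lower (edgeR adjusted p = 0.00155). Gins4 lost its call when WT library 1 (edgeR adjusted p = 0.0577) or WT library 2 (0.0584) was left out, with p from 0.000934 to 0.0584 over all settings.

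Among polymerases, clamp and clamp loader, 4 of 11 genes fell (36.4%), 0 rose and 7 were not called. Over all tested genes 27.8% fell and 27.8% rose, so the share of falls lies near that of any gene. The genes that fell encode subunits of the priming complex and of polymerase epsilon, and 1 subunit of the clamp loader. Pola2, the accessory subunit of polymerase alpha, had 89.8, 94.5 and 90.4 CPM in KO replicates 1 to 3, against 112, 111 and 113 CPM in WT replicates 1 to 3. Its groups did not overlap, with a log2 change of -0.29 (SE 0.05, edgeR adjusted p = 0.000514). Pola1, which encodes the catalytic subunit of the same enzyme, had 115, 111 and 107 CPM in the KO replicates and 118, 114 and 112 CPM in the WT replicates. Its groups overlapped, at a log2 change of -0.04 (95% interval -0.16 to 0.07, edgeR adjusted p = 0.512). Prim1, the primase that makes the RNA primer, had 74.0, 77.9 and 73.8 CPM in the KO replicates and 86.6, 80.6 and 88.4 CPM in the WT replicates. All KO libraries lay below all WT libraries, at a log2 change of -0.18 (SE 0.06, edgeR adjusted p = 0.0188). Pole, the catalytic subunit of the leading-strand polymerase epsilon, had 179, 182 and 192 CPM in the KO replicates and 223, 216 and 223 CPM in the WT replicates. All KO libraries lay below all WT libraries, with a log2 change of -0.26 (SE 0.05, edgeR adjusted p = 0.00106). Pold1, the catalytic subunit of polymerase delta, was at a mean of 112 ± 3.11 CPM over KO and 117 ± 0.901 CPM over WT replicates (SD, n = 3 each), a log2 change of -0.06 (95% interval -0.17 to 0.04, edgeR adjusted p = 0.297).

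Pcna, the sliding clamp, had 355, 381 and 349 CPM in KO replicates 1 to 3, against 381, 342 and 390.3 CPM in WT replicates 1 to 3, with groups that overlapped. Its log2 change was -0.04 (95% interval -0.17 to 0.10, edgeR adjusted p = 0.639). A processed pseudogene of Pcna, Pcna-ps2, had 4252 counts in KO and 4566 counts in WT libraries in sum, beside 41460 and 40408 for Pcna, and reads of near-identical copies can be assigned to the wrong gene. The 5 RFC genes encode the loader that opens the clamp. Rfc1 and Rfc2 had log2 changes of 0.00 (95% interval -0.10 to 0.11, edgeR adjusted p = 0.976) and 0.01 (95% interval -0.10 to 0.13, edgeR adjusted p = 0.847), and with scaling by library totals Rfc1 was called higher (edgeR adjusted p = 0.0256). Rfc3 fell, with a log2 change of -0.20 (SE 0.07, edgeR adjusted p = 0.0266), although KO replicate 2 at 67.4 CPM lay above WT replicate 2 at 66.7 CPM. Rfc4 and Rfc5 were not called, at -0.14 (95% interval -0.33 to 0.05, edgeR adjusted p = 0.201) and -0.12 (95% interval -0.22 to -0.01, edgeR adjusted p = 0.0647), and both were called lower without KO replicate 2 (edgeR adjusted p = 0.00545 and 0.0143, in ranges of 0.00545 to 0.853 and 0.0143 to 0.929). Wsb2 on the opposite strand overlaps 10.7% of the exon bases of Rfc5 and had 5197 counts in KO and 15406 counts in WT libraries in sum. Eif4a2 on the opposite strand overlaps 12.7% of the exon bases of Rfc4. It had 29981 counts in KO and 34053 counts in WT libraries in sum, beside 7642 and 7954 for Rfc4. The call of Rfc3 was lost when KO library 1 (edgeR adjusted p = 0.115), KO library 3 (0.0611), WT library 1 (0.114) or WT library 3 (0.0864) was left out and under upper-quartile scaling (0.0825) and under library-total scaling (0.283), with p from 0.000615 to 0.283 over all settings. Prim1 lost its call when KO library 1 (edgeR adjusted p = 0.0793), WT library 1 (0.0741) or WT library 3 (0.0753) was left out and under upper-quartile scaling (0.0783) and under library-total scaling (0.374), with p from 0.00262 to 0.374 over all settings.

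Nucleotide supply had the lowest median of the 6 steps, with 3 of 4 genes lower, 0 higher and a median log2 change of -0.54. Over all tested genes 27.8% were lower and 27.8% higher. Rrm1, the large subunit of ribonucleotide reductase, which makes deoxyribonucleotides (ENSMUSG00000030978, chromosome 7, positions 102441695 to 102469771 on the plus strand), had 437, 493 and 410.4 CPM in KO replicates 1 to 3, against 686, 668 and 642 CPM in WT replicates 1 to 3. The highest KO library lay below the lowest WT library, and the log2 change was -0.57 (SE 0.07, edgeR adjusted p = 4.92e-05). Rrm2, the S-phase small subunit of that enzyme (ENSMUSG00000020649, chromosome 12, positions 24708241 to 24714146 on the plus strand), had 206, 235 and 202 CPM in the KO replicates and 324, 299.7 and 293 CPM in the WT replicates. That is a KO mean of 70.1% of the WT mean and a log2 change of -0.51 (SE 0.07, edgeR adjusted p = 9.36e-05). Tyms, thymidylate synthase (ENSMUSG00000025747, chromosome 5, positions 30058202 to 30073617 on the minus strand), had 99.4, 104 and 98.9 CPM in the KO replicates and 143, 151 and 152 CPM in the WT replicates. The KO libraries of Tyms had an SD of 2.69 CPM and all lay below the WT libraries, and its log2 change was -0.56 (SE 0.05, edgeR adjusted p = 7.88e-06). The 3 genes lie on chromosomes 7, 12 and 5 and their calls held in all 15 other settings.

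Tk1, the thymidine kinase of the salvage route, had 75.6, 71.8 and 75.6 CPM in the KO replicates and 78.1, 78.4 and 80.2 CPM in the WT replicates. Every KO library was below every WT library, yet the difference was small and not called, at a log2 change of -0.09 (95% interval -0.20 to 0.03, edgeR adjusted p = 0.176). The level of Rrm2 per exon length relative to that of Rrm1, a ratio chosen after the values were seen, was 1.87, 1.90 and 1.96 in KO replicates 1 to 3, against 1.88, 1.78 and 1.81 in WT replicates 1 to 3, with a log2 difference of 0.06 (exact two-sided permutation p = 0.2).

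The E2F factors and E-type cyclins split. E2f1, an activator of S-phase genes (ENSMUSG00000027490, chromosome 2, positions 154559407 to 154569892 on the minus strand), had 39.3, 41.0 and 33.6 CPM in KO replicates 1 to 3, against 56.2, 56.0 and 57.2 CPM in WT replicates 1 to 3. It fell in all KO libraries, with a log2 change of -0.57 (SE 0.08, edgeR adjusted p = 9.16e-05). E2f2, a close relative with the same role (ENSMUSG00000018983, chromosome 4, positions 136172394 to 136196057 on the plus strand), had 65.1, 60.6 and 69.6 CPM in KO replicates 1 to 3, against 39.3, 38.3 and 44.5 CPM in WT replicates 1 to 3. It rose in all KO libraries, by a log2 change of 0.68 (SE 0.08, edgeR adjusted p = 3e-05), the greatest change in either direction among the 37 genes. The E2f2 level per exon length relative to that of E2f1, a ratio chosen after the values were seen, was 1.07, 0.954 and 1.34 in KO replicates 1 to 3, against 0.451, 0.442 and 0.503 in WT replicates 1 to 3. The ratio was higher in every KO library than in every WT library, and its exact two-sided permutation p was 0.1, the smallest possible here. Within the 37 genes, ordered by level per exon length, E2f2 stood at place 28 in KO and place 35 in WT libraries, and E2f1 at place 32 in KO and place 26 in WT libraries.

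Cyclin E activates the kinase that starts S phase, and it is encoded by a pair of genes. Ccne2 (ENSMUSG00000028212, chromosome 4, positions 11191351 to 11204779 on the plus strand) had 56.1, 64.7 and 50.2 CPM in KO replicates 1 to 3, against 86.1, 79.5 and 86.3 CPM in WT replicates 1 to 3. The groups did not overlap, and the log2 change was -0.56 (SE 0.08, edgeR adjusted p = 0.000248). Ccne1 had 13.0, 15.3 and 11.4 CPM in the KO replicates and 13.4, 13.8 and 12.9 CPM in the WT replicates. The KO libraries enclosed the WT libraries, at a log2 change of -0.02 (95% interval -0.26 to 0.23, edgeR adjusted p = 0.903). The Ccne2 level per exon length relative to Ccne1 was 3.30, 3.23 and 3.36 in KO replicates 1 to 3, against 4.88, 4.39 and 5.09 in WT replicates 1 to 3 (chosen after the values were seen, exact two-sided permutation p = 0.1), lower in every KO library. Ints8 on the opposite strand overlaps 17.4% of the exon bases of Ccne2 and had 6122 counts in KO and 6696 counts in WT libraries in sum, beside 6541 and 9130 for Ccne2.

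**Figure D3:**
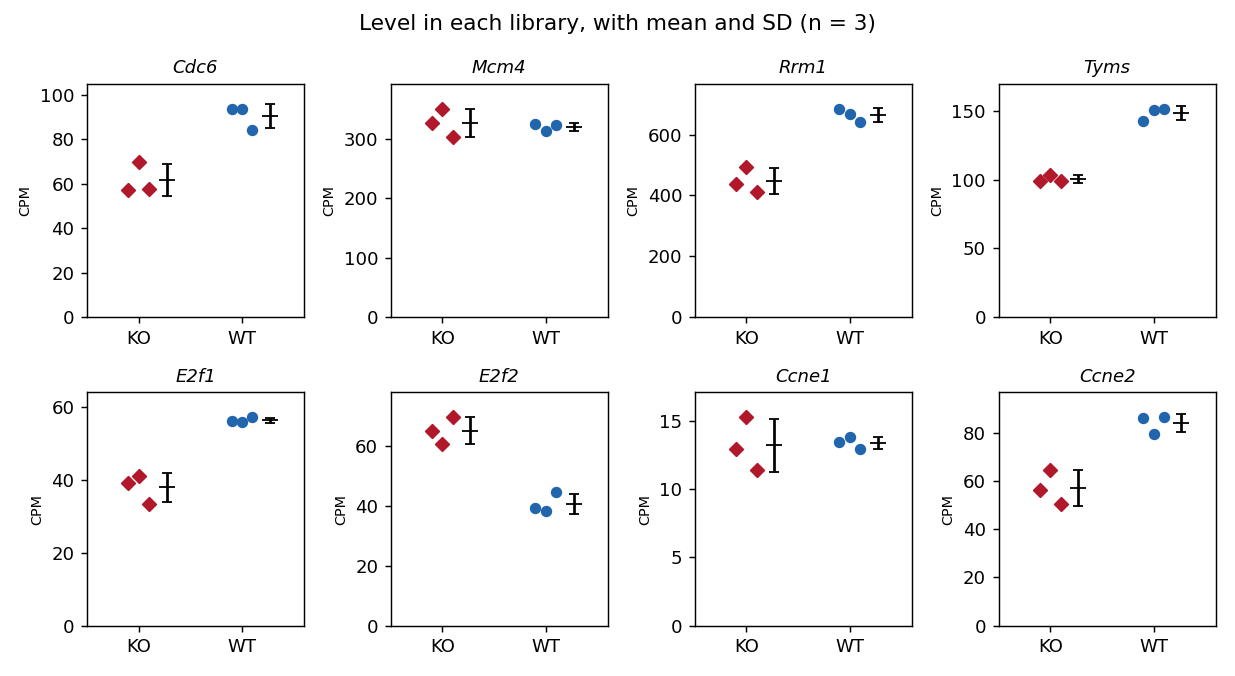
Level in CPM (TMM-scaled, axis from 0) of 8 replication genes in each library, with KO (red diamonds) left of WT (blue circles), and the mean and SD of 3 libraries beside them in black. E2f2 is higher in all KO libraries, Mcm4 and Ccne1 overlap between the groups, and Cdc6, Rrm1, Tyms, E2f1 and Ccne2 are lower in all KO libraries.

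Genes that rebuild chromatin behind the fork were lower in 3 of 4 cases, with 0 higher and a median log2 change of -0.33. Over all tested genes 27.8% were lower and 27.8% higher. Uhrf1, which recognises hemimethylated DNA and recruits the maintenance methyltransferase, had 164, 184 and 171 CPM in KO replicates 1 to 3, against 243, 222 and 229 CPM in WT replicates 1 to 3. Its log2 change was -0.42 (SE 0.06, edgeR adjusted p = 0.00014). Slbp, which binds the stem-loop of histone mRNAs and is needed for their processing, had 143, 147 and 145 CPM in the KO replicates and 199, 184 and 195 CPM in the WT replicates. The KO libraries agreed closely for Slbp, with an SD of 1.72 CPM, and the log2 change was -0.41 (SE 0.05, edgeR adjusted p = 5.58e-05). Chaf1b, a subunit of the histone chaperone CAF-1, was at a mean of 86.1 ± 5.03 CPM over KO and 103 ± 3.18 CPM over WT replicates (SD, n = 3 each). It fell in all KO libraries, with a log2 change of -0.26 (SE 0.06, edgeR adjusted p = 0.00305). Its large subunit gene Chaf1a had a log2 change of -0.13 (95% interval -0.26 to 0.00, edgeR adjusted p = 0.0838). Chaf1a was called lower without KO replicate 2 (edgeR adjusted p = 0.00295, in a range of 0.00295 to 0.873), and 52.5% of its exon bases overlap Ubxn6 on the opposite strand, with 5393 counts in KO and 3909 counts in WT libraries in sum.

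Levels of different genes were compared per exon length, as TPM, within each group. The order depends on the union exon lengths, and which transcripts were expressed was not examined. Rrm1, with 11012 exon bases, had a WT mean of 666 CPM, against 306 CPM for Rrm2, with 2771 exon bases. Pcna was the highest of the 37 at 529 ± 12.1 TPM in KO and 504 ± 16.3 TPM in WT libraries (SD, n = 3 each). Rrm2 followed Pcna in WT libraries at 359.9 ± 18.3 TPM, and in KO libraries it stood at place 4, at 271 ± 16.7 TPM, within its spread of Mcm5 at 276 ± 15.8 TPM. The lowest were Gins3 and Ccne1, at 17.1 ± 0.952 and 17.4 ± 2.14 TPM in KO and 18.0 ± 2.48 and 16.4 ± 1.16 TPM in WT libraries. These neighbours did not differ beyond their spread.

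Other genes of DNA replication, of nucleotide synthesis and of S-phase control stood in 9 lists, called other replication genes below. These lists hold inhibitors and repressors as well as activators, so their counts join genes of opposite roles. Of their 104 genes, 56 fell (53.8%), 14 rose (13.5%) and 34 were not called, with a median log2 change of -0.19. Over all tested genes 27.8% fell and 27.8% rose. Nucleotide enzymes led, with 12 of 14 lower (85.7%) and 1 higher (7.14%). Ctps, which makes CTP, had 191, 261 and 172 CPM in the KO replicates and 457, 452 and 416 CPM in the WT replicates. The groups did not overlap, and the log2 change was -1.09 (SE 0.14, edgeR adjusted p = 0.000213). Umps of pyrimidine synthesis, the nucleoside diphosphate kinase gene Nme1 and Rrm2b, the alternative small subunit of ribonucleotide reductase, fell with log2 changes of -0.59 (SE 0.09, edgeR adjusted p = 0.000196), -0.58 (SE 0.08, edgeR adjusted p = 0.000117) and -0.56 (SE 0.07, edgeR adjusted p = 8.43e-05). The gene that rose was Tk2, the mitochondrial thymidine kinase, chosen after its value was seen, at 0.53 (SE 0.11, edgeR adjusted p = 0.00211).

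Of 10 further licensing genes, 7 fell (70%) and 1 rose (10%), where 27.8% of all tested genes fell and 27.8% rose. The origin recognition complex genes Orc2, Orc6, Orc5 and Orc1 had log2 changes of -0.64, -0.53, -0.40 and -0.39, and Orc3, chosen after its value was seen, rose by 0.15. Of 8 origin firing genes, 4 fell (50%) and 0 rose. The falls were led by Dbf4 and Cdc7, the subunits of the kinase that phosphorylates the Mcm2-7 ring, at -0.49 and -0.37. Topbp1, also among the falls at -0.14, lost its call in 9 of the 15 other settings. Of 7 genes of alternative clamp loaders and fork protection, 5 fell (71.4%) and 0 rose, with Tipin at -0.49 and Dscc1 at -0.42. The call of Clspn, at -0.22, was lost in 2 of the 15 other settings. The call of Orc3 was lost when KO library 1 (edgeR adjusted p = 0.0792), KO library 3 (0.0612), WT library 1 (0.102) or WT library 2 (0.173) was left out and with no filter (0.117) and in DESeq2 (0.065), with p from 0.00172 to 0.173 over all settings.

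Of 17 further genes of the polymerases, the single-strand binder RPA and Okazaki fragment joining, 6 fell (35.3%) and 4 rose (23.5%). These shares lie near the 27.8% of all tested genes called in each direction. Pole4, a histone-fold subunit of polymerase epsilon, was at -0.61 and Rnaseh2b at -0.32. Fen1 also fell, at -0.28, and lost its call in 3 of the 15 other settings. The 4 that rose were Rnaseh2a at 0.24 and, chosen after their values were seen, the ligase gene Lig1 at 0.23, the RPA subunit gene Rpa1 at 0.18 and Pold3 at 0.14. The call of Lig1 held in all 15 other settings. That of Rpa1 was lost when WT library 2 (edgeR adjusted p = 0.0579) was left out, with p from 0.000161 to 0.0579 over all settings, that of Rnaseh2a when KO library 1 (edgeR adjusted p = 0.0961), WT library 2 (0.0619) or WT library 3 (0.117) was left out, with p from 0.0026 to 0.117 over all settings, and that of Pold3 when KO library 1 (edgeR adjusted p = 0.145), WT library 1 (0.0979), WT library 2 (0.12) or WT library 3 (0.113) was left out and with no filter (0.141), in DESeq2 (0.0706) and with the replicate number as a block (0.056), with p from 0.00113 to 0.145 over all settings.

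Among 16 further E2F, pocket protein and MuvB genes, 7 fell (43.8%) and 3 rose (18.8%), against 27.8% of all tested genes in each direction. E2f7, a repressor of the family, and Mybl2, a transcription factor gene that E2F factors control, were at -0.60 and -0.65. Rbl2, the pocket protein p130, had 55.4, 48.8 and 57.5 CPM in the KO replicates and 26.4, 27.9 and 28.5 CPM in the WT replicates. Its KO level was about 195% of the WT level, with a log2 change of 0.96 (SE 0.07, edgeR adjusted p = 2.68e-06). Lin37, a subunit of the MuvB core that works with p130 to repress cell-cycle genes, rose by a log2 change of 0.84 (SE 0.09, edgeR adjusted p = 2.46e-05). The third was Tfdp2, a dimer partner of E2F factors, chosen after its value was seen, at 0.16, and its call was lost when KO library 1 (edgeR adjusted p = 0.0707), WT library 1 (0.0743) or WT library 3 (0.0583) was left out and with no filter (0.0624), with p from 0.000549 to 0.0743 over all settings.

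Of 9 genes for S-phase kinases and their regulators, 4 fell (44.4%) and 2 rose (22.2%), against 27.8% of all tested genes in each direction. Cdkn1a, which encodes the inhibitor p21, had 19.1, 17.0 and 20.2 CPM in the KO replicates and 3.58, 3.31 and 3.30 CPM in the WT replicates. Every KO library lay above every WT library, with a log2 change of 2.47 (SE 0.11, edgeR adjusted p = 6.03e-08). Cdkn1b, which encodes the inhibitor p27, was at a mean of 165 ± 17.2 CPM over KO and 104 ± 4.16 CPM over WT replicates (SD, n = 3 each). It rose in all KO libraries, with a log2 change of 0.67 (SE 0.07, edgeR adjusted p = 2.63e-05). Cdc25a, the phosphatase that activates the S-phase kinases, fell with a log2 change of -0.71 (SE 0.09, edgeR adjusted p = 6.76e-05), and Ccna2, cyclin A, with one of -0.35 (SE 0.06, edgeR adjusted p = 0.000448). The other members that fell, chosen after their values were seen, were Skp2, which helps to degrade p27, at -0.25 (its call was lost when KO library 1 (edgeR adjusted p = 0.0562) was left out and under library-total scaling (0.0989), with p from 5.69e-06 to 0.0989 over all settings), and Cdkn1c, which encodes the inhibitor p57. Cdkn1c averaged under 1 CPM in both groups, with counts of 12, 15 and 10 in KO libraries and 23, 26 and 34 in WT libraries, at a log2 change of -1.23 (SE 0.31, edgeR adjusted p = 0.00615).

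Of 12 further chromatin assembly genes, 6 fell (50%) and 1 rose (8.33%), against 27.8% of all tested genes in each direction. Hells, a chromatin remodeller, was at -0.51 and the histone chaperone gene Nasp at -0.39. Lsm10, a subunit of the particle that processes histone mRNAs, was higher at 0.81. Of 11 S-phase checkpoint genes, 5 fell (45.5%) and 2 rose (18.2%). Chek1, among the falls at -0.23, lost its call in 9 of the 15 other settings. Rad17, which encodes a loader of the checkpoint clamp, was at -0.49, and the genes that rose, chosen after their values were seen, were Fancd2 at 0.21 and Brca1 at 0.20. The calls of both were lost when WT replicate 2 was left out (edgeR adjusted p = 0.0506 for each, with p from 0.000645 and 0.000808 upward over all settings). Of 20 genes of G2 phase and mitosis, 9 fell (45%) and 3 rose (15%), against the same 27.8% of all tested genes in each direction. Ube2c at -0.61 and Ccnb1 at -0.51 were among the falls. The rises were Bub1b at 0.40, Cenpf at 0.39 and Ccnb2 at 0.16, all chosen after their values were seen. The call of Ccnb2 was lost when KO library 1 (edgeR adjusted p = 0.0571), KO library 3 (0.0971), WT library 1 (0.118), WT library 2 (0.0687) or WT library 3 (0.0921) was left out and with no filter (0.0599), with p from 0.00207 to 0.118 over all settings.

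**Figure D4:**
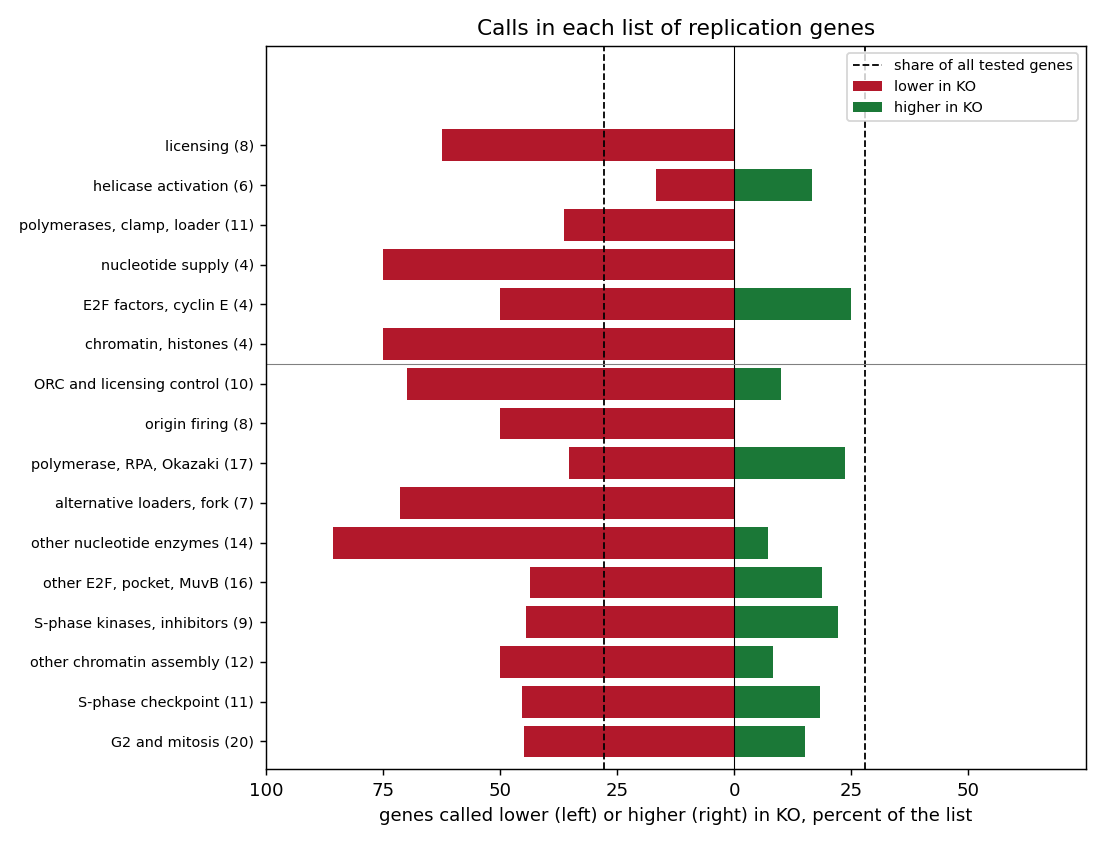
Share of each list called lower (red, to the left) or higher (green, to the right) in KO at an edgeR adjusted p under 0.05, in percent of the genes tested, whose number is in brackets. Lists above the grey line are the 6 steps of the 37 genes, and the dashed lines are the 27.8% of all tested genes called in each direction.

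The way libraries were scaled set how many of the small changes passed. The median over all genes was 0.01 with TMM, with DESeq2 size factors 0.00, with upper quartiles 0.06 and with library totals 0.13. The median of the 37 genes was -0.18, -0.19, -0.13 and -0.06 under the same scalings. A change of scaling shifts every gene by nearly the same amount. The distance between these medians was therefore fixed in advance and gives no added support. With library totals 12 of the 37 were called lower and 4 higher, where 20.5% of all tested genes were lower and 36.0% higher, so that 63.7% of all calls were rises, while with TMM rises and falls were 4463 and 4462. All 12 were among the 18 that fell with TMM, and the 2 added rises were Mcm4 and Rfc1. With upper quartiles 15 were lower and 2 higher, where 24.5% of all tested genes were lower and 31.1% higher. limma voom gave 18 lower and 2 higher, where 27.8% of all tested genes were lower and 27.5% higher. DESeq2 gave 18 lower and 2 higher, where 27.3% of all tested genes were lower and 26.0% higher. At an edgeR adjusted p under 0.01, 13 were lower and 1 higher, where 21.6% of all tested genes were lower and 21.3% higher. Cdc6, Gins2, Pola2, Pole, Rrm1, Rrm2, Tyms, E2f1, Ccne2, Uhrf1, Slbp and Chaf1b were lower, and E2f2 higher, in all 15 other settings.

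**Figure D5:**
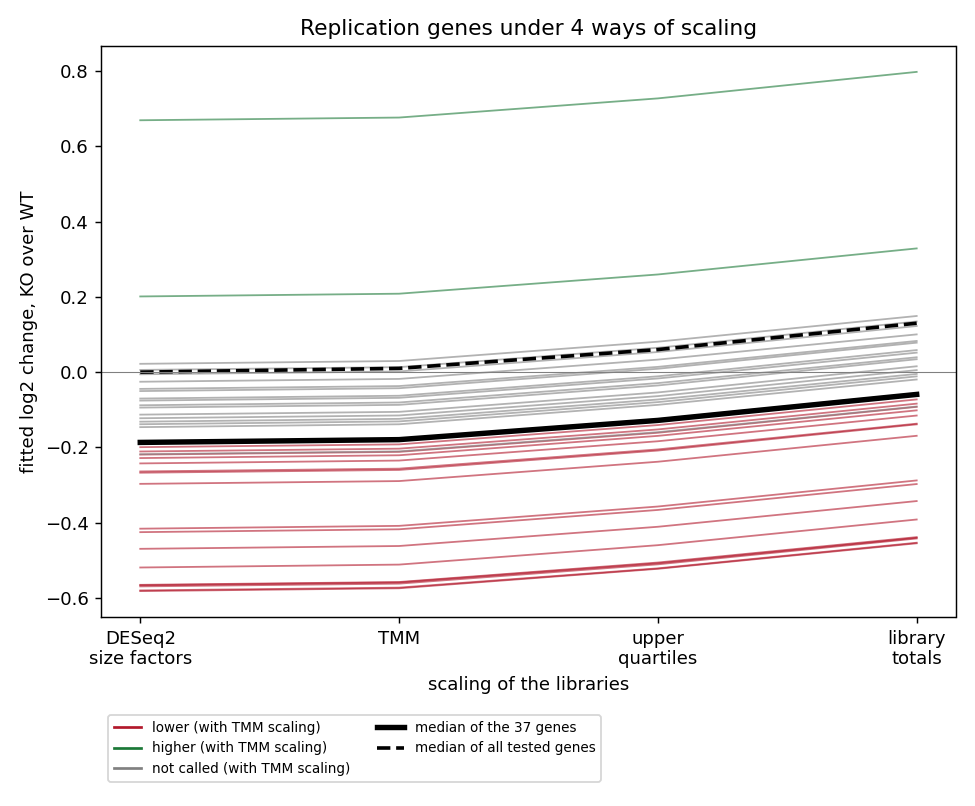
Fitted log2 change (KO over WT) of each of the 37 replication genes under 4 ways of scaling the libraries, coloured by its call with TMM scaling. The thick black line is the median of the 37 genes, -0.19, -0.18, -0.13 and -0.06 from left to right, and the dashed line the median of all tested genes, which rises to 0.13 with library totals.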

How the data were processed

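RNA sequencing libraries were made from total RNA (1.3 ug each, per the labels) of 3 KO and 3 WT samples. The authors deposited unnormalized counts, whole numbers for each Ensembl gene. The submitters' processing notes name the genome build GRCm38 (mm10) and, with no order or role, STAR 2.5.2b, Subread 1.5.2, Trimmomatic 0.36, bcl2fastq 2.17 and DESeq2. The sources used here do not give the strand setting, the annotation release or the treatment of multi-mapping reads, so overlapping and near-identical genes can share reads.

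Symbols, positions and exon lengths came from GENCODE M21 (49056 of 49315 IDs matched). Genes were filtered with filterByExpr at a minimum count of 10 (16033 kept), scaled by TMM and tested with edgeR 4.0.16 in R 4.3.3 (robust quasi-likelihood fit, genotype as the only term, BH adjustment over all genes tested, threshold 0.05). SEs and 95% intervals come from the quasi-likelihood F statistic. TPM used union exon lengths and no TMM. Alternatives were other scalings and filters, DESeq2 1.42.0, limma voom (limma 3.58.1), a threshold of 0.01, the replicate number as a block, and omission of each library. The 37 genes and all lists were chosen with earlier results of these data known. Named genes were all 37, Chchd2, Cdkn1a and, per further list, the up to 4 called genes with the greatest change whose mean reached 1 CPM; others are marked, and some results are not reported here. No replicate pair agreed within sampling noise.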

Additional observations from a re-analysis of the deposited data

How the results depend on the processing

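Of the 37 genes, 14 kept their direction and their side of the threshold in all 15 other settings, 7 lost a call in at least 1, 9 gained one in at least 1, and 12 changed direction in at least 1, all 12 without a call at either end. With scaling by library totals, the rises among the 37 numbered 4 (2 with TMM) and those among the 104 other replication genes 23 (14 with TMM), the median of the 37 was -0.06, and Mcm6, Mcm7, Cdc45, Pola1, Pold1, Pcna, Rfc5, Tk1 and Ccne1 turned to 0.04, 0.02, 0.05, 0.08, 0.06, 0.08, 0.01, 0.03 and 0.10. With upper quartiles, Pola1, Pcna and Ccne1 turned to 0.01, 0.01 and 0.03. Rfc1, at 0.00 with TMM, turned to -0.01 with DESeq2 size factors, no filter, DESeq2 or without KO replicate 2, to 0.00 without WT replicate 2 and to -0.02 without WT replicate 3. Rfc2 turned to 0.00 without KO replicate 3 and -0.01 without WT replicate 2, Mcm4 to -0.03 without KO replicate 2, and Ccne1 to 0.08 without KO replicate 3 (-0.14 without KO replicate 2). At a threshold of 0.01, 13 genes were lower and 1 higher. Leaving out 1 library at a time gave 13 to 25 lower and 1 to 2 higher of the 37, a median of -0.23 to -0.16, and 46 to 64 lower and 8 to 17 higher of the 104 other genes. Over all genes it gave 3789 to 4938 higher (22.9% to 29.9% of the genes tested) and 3798 to 5064 lower (23.1% to 30.7%). With the replicate block, 18 genes were lower and 2 higher (all genes 4466 and 4412), and it ended no call among the 37. The deposited column names carry the same set numbers in both groups. Deviations of same-numbered libraries from their group means correlated at -0.059, 0.051 and 0.028, so no shared deviation was seen. These values cannot show whether the samples were paired by design. DESeq2 and limma voom also gave 18 lower and 2 higher. The SEs of the 37 log2 changes were at most 0.11 and hold counting error and the spread between libraries together.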
